A study of Mus musculus with 8 samples.

Results

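Transcripts of 44 genes for building peroxisomes and for the enzymes and carriers inside them were compared between livers given recombinant FGF21 (rFGF21) and livers given vehicle (PBS). The members were chosen by name from a list of 45 genes, and 44 were found by gene name among the 30266 genes of the deposited table; Dao was not analysed here. They fall into 13 peroxins, 5 membrane transporters and channels, and 26 enzymes. The rFGF21 group held 4 libraries from male mice of 8 weeks with the genotype Mdr2-/-, taken 4 h after 1.0 mg/kg of the hormone, and the PBS group held 4 libraries from male Mdr2-/- mice of the same age taken 4 h after vehicle. Both groups therefore carry the same deletion, and no Mdr2-sufficient mouse was compared. Mdr2 (Abcb4) moves phospholipid into bile, and its loss is known to cause cholestatic liver injury; the state of these livers was not measured here. Whether separate animals gave the libraries is not stated in the labels, and the p-values therefore cover only the spread among these samples, which may be technical.

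Peroxisomes are organelles with a single membrane that take up folded proteins from the cytosol. Peroxins carry out that import: receptors bind enzymes that carry a targeting signal, a docking complex receives them, and a ring of ubiquitin ligases with an ATPase pulls the receptor out again. In hepatocytes the enzymes shorten very long, branched and dicarboxylic fatty acids and the side chain of bile acid precursors, start ether lipid synthesis, and oxidise urate, glycolate and amino acids, and catalase removes the hydrogen peroxide that the oxidases make. Many of these genes in mouse liver are targets of the fatty acid receptor PPAR-alpha.

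Each library held between 62756328 and 73313449 reads. Levels are given as CPM, a read count scaled to a common library total after TMM normalization, and levels of different genes are compared as RPKM, which is the CPM divided by the gene's annotated exon length in kilobases. A gene is said to have changed where edgeR's quasi-likelihood test gave a Benjamini-Hochberg adjusted p under 0.05 over the 18315 genes tested; 2.82% of them did, 1.67% lower and 1.15% higher after rFGF21. These were 210 higher and 306 lower genes, against 257 higher and 178 lower with scaling by library size alone. All 44 members were among the tested genes. The summed level of 6 hepatocyte markers (Alb, Apoa1, Ttr, Serpina1c, Cps1 and Hnf4a) ran from 58069 to 72915 CPM in rFGF21 libraries and from 61287 to 79969 CPM in PBS libraries, while Crx and Rcvrn, genes of photoreceptors, had 0 reads in all 8. The 3 erythroid markers summed to between 324 and 554 CPM in rFGF21 libraries and between 232 and 316 CPM in PBS libraries, with no overlap and no single gene called, and the part of blood in the results was not tested. PBS library 4 stood apart among the controls. It had the lowest sums of cholangiocyte (167 CPM), Kupffer cell and macrophage (561 CPM), stellate cell (213 CPM), neutrophil (10.6 CPM) and erythroid (232 CPM) markers among the 8 libraries, and the highest hepatocyte sum. Its endothelial sum (81.2 CPM) lay inside the PBS range of 62.7 to 117 CPM. Its T and B cell sum (4.51 CPM) lay inside the PBS range of 4.01 to 5.36 CPM. Among the PBS libraries, library 4 was the lowest in 26 of 44 members and the highest in 10. In whole tissue, fewer cells of a type and less RNA per cell cannot be told apart.

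Of the 44 members, 6 fell after rFGF21 and 0 rose. That is 13.6% of the members lower, against 1.67% of all genes tested. The members and the other lists were chosen with earlier results of these data known, so such shares describe the lists and do not test them. The 6 are Nudt7, Pxmp4, Pex14, Hacl1, Phyh and Abcd3. Log2 fold changes (rFGF21 over PBS) were below 0 in 39 of the 44 members, with a median of -0.29, while 49.6% of all genes tested were below 0 and their median was 0.00. With scaling by library size alone, 37 of the 44 were below 0, and Nudt19 and Pex2 were then above it. In 16 members every rFGF21 library lay below every PBS library, which held for 6.39% of all genes tested; 10 of these 16 did not pass the test. In 0 members did every rFGF21 library lie above every PBS library, where 5.9% of all genes tested did. At an unadjusted p under 0.05, 26 members were lower and 3 higher (9.86% and 8.92% of all genes tested). Single libraries weighed on that count. Without PBS library 4, 12 members fell (where 1.54% of all genes were called lower), and leaving out any other library gave between 1 and 3. DESeq2 called 16 members lower and 0 higher, where it called 4.29% of all genes lower.

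**Figure D1:**
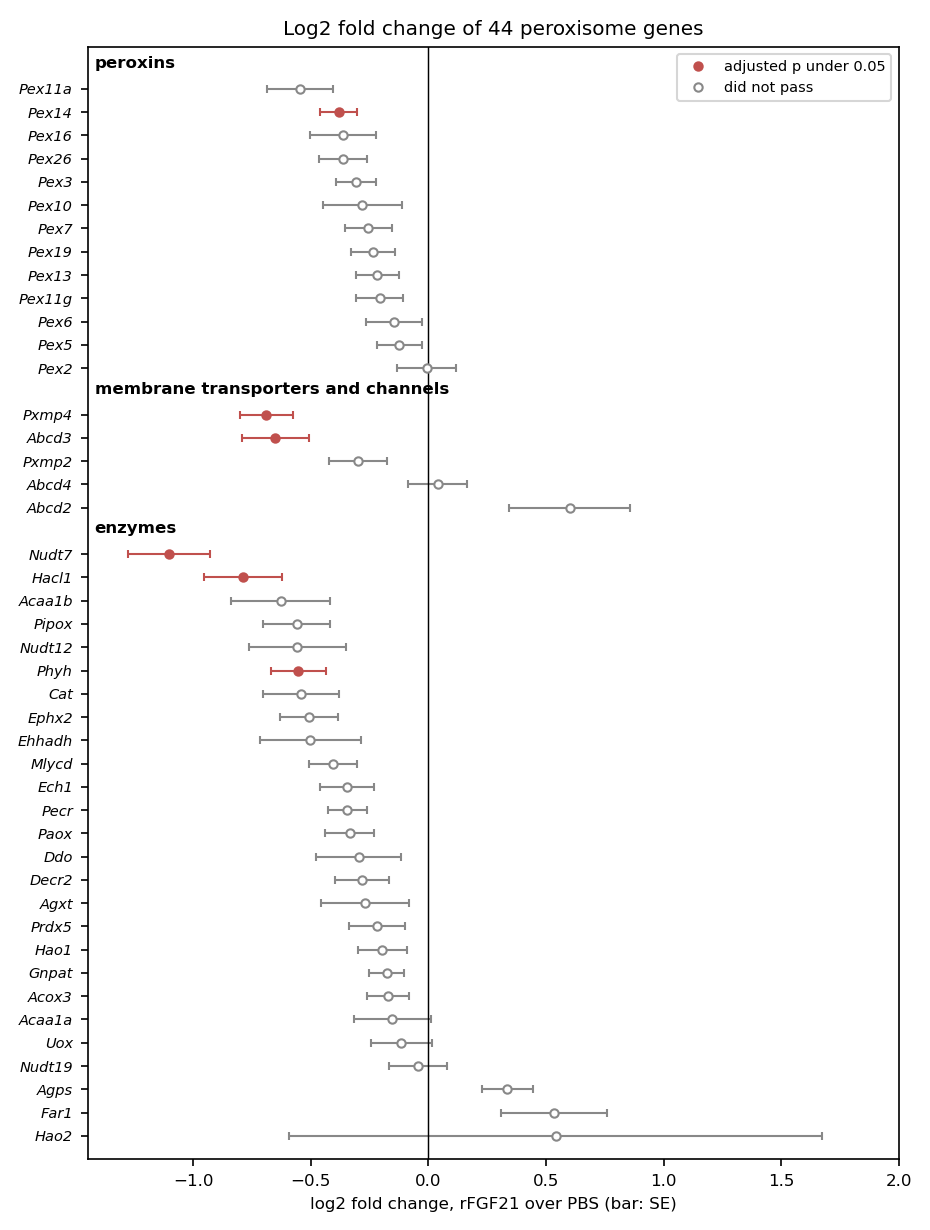
Log2 fold change, rFGF21 over PBS, of the 44 members by class, with bars of 1 standard error and red points for an adjusted p under 0.05. Red points are Pex14 among the peroxins, Pxmp4 and Abcd3 among the transporters, and Nudt7, Hacl1 and Phyh among the enzymes; 39 of the 44 points lie left of 0.

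The largest decrease among the members was that of Nudt7, a peroxisomal hydrolase that cuts coenzyme A and its acyl esters (chr8:114133557-114154739, plus strand, GRCm38). Nudt7 was read at 170.2, 110.3, 128 and 126 CPM in rFGF21 libraries 1, 2, 3 and 5, against 312, 227, 247 and 363 CPM in PBS libraries 1, 2, 4 and 5. Every rFGF21 library was below every PBS library, and the highest rFGF21 value, in library 1, lay below the lowest PBS value, in library 2. Nudt7 fell by 53.4% (-1.10 ± 0.17 on the log2 scale, with the SE of the fit over 4 libraries a group and an edgeR adjusted p of 0.0119), and the call held whichever library was left out. Values in this form below are log2 fold changes with their SE. It was also the highest of the 3 nudix hydrolases per length, at 23.8 ± 4.56 RPKM in rFGF21 and 51.1 ± 11.1 RPKM in PBS libraries (SD, n = 4 each). The other two differed in size. Nudt12, which hydrolyses NADH, stood at 21.7 ± 4.98 CPM in rFGF21 and 31.9 ± 8.07 CPM in PBS libraries and did not pass (-0.56 ± 0.20, edgeR adjusted p = 0.173). Nudt19, a further coenzyme A hydrolase, stood at 31.0 ± 4.76 CPM in rFGF21 and 32.0 ± 3.49 CPM in PBS libraries (-0.05 ± 0.12, edgeR adjusted p = 0.884).

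Alpha oxidation removes a single carbon from fatty acids that a methyl branch protects from beta oxidation, and both members of that role fell. Phyh, the phytanoyl-CoA hydroxylase of its first step (chr2:4919019-4938730, plus strand), was read at 883, 1031, 968 and 844 CPM in rFGF21 libraries 1, 2, 3 and 5, against 1372, 1133, 1517 and 1444 CPM in PBS libraries 1, 2, 4 and 5. All 4 rFGF21 values were below the lowest PBS value, that of library 2. Phyh fell by 31.8% (-0.55 ± 0.12, edgeR adjusted p = 0.0381), and at 492 ± 44.5 RPKM in rFGF21 and 722 ± 87.9 RPKM in PBS libraries it was among the most abundant members. Hacl1, the lyase that cleaves the hydroxylated product (chr14:31598730-31641257, minus strand), was read at 45.7, 67.5, 57.4 and 54.8 CPM in rFGF21 libraries 1, 2, 3 and 5, against 90.7, 117, 70.3 and 111 CPM in PBS libraries 1, 2, 4 and 5. The groups did not overlap, but PBS library 4 came close to rFGF21 library 2. Hacl1 fell by 42.2% (-0.79 ± 0.17, edgeR adjusted p = 0.0354). Its gene overlaps Btd on the opposite strand by 230 bases, and with a strand setting not given in the sources used here, reads of that stretch cannot be assigned. Phyh kept its call without PBS library 2 and in no other fit that left out a library (edgeR adjusted p from 0.0300 to 0.122), and Hacl1 kept its call without rFGF21 library 2 or PBS library 4 (from 0.0129 to 0.107).

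Among the 5 membrane proteins, 2 fell and 0 rose (1.67% and 1.15% of all genes tested). Pxmp4, an integral protein of the peroxisomal membrane (chr2:154585758-154603708, minus strand), was read at 31.3, 36.4, 34.3 and 34.9 CPM in rFGF21 libraries 1, 2, 3 and 5, against 48.1, 58.2, 48.3 and 66.1 CPM in PBS libraries 1, 2, 4 and 5. The rFGF21 libraries were close together and all lay below the PBS libraries. Pxmp4 fell by 38.0% (-0.69 ± 0.11, edgeR adjusted p = 0.0142), and lost its call only without rFGF21 library 1 (edgeR adjusted p = 0.0581) among the 8 fits with a library removed. Abcd3, or PMP70, which imports branched and dicarboxylic acyl-CoA and bile acid precursors (chr3:121758774-121815302, minus strand), was read at 162, 166, 189.8 and 174 CPM in rFGF21 libraries 1, 2, 3 and 5, against 265, 313, 197 and 311 CPM in PBS libraries 1, 2, 4 and 5. PBS library 4 lay just above rFGF21 library 3, and the other PBS libraries were well apart. Abcd3 fell by 36.3% (-0.65 ± 0.14, edgeR adjusted p = 0.0406), a call that was kept without PBS library 4 (0.0101) and lost without any other library, where the adjusted p reached 0.125.

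The remaining 3 membrane proteins did not pass. Pxmp2, a channel for small solutes and the most abundant of the class per length, stood at 61.4 ± 8.04 RPKM in rFGF21 and 75.6 ± 10.1 RPKM in PBS libraries (-0.30 ± 0.12, edgeR adjusted p = 0.224). Abcd2, a carrier of very long chain acyl-CoA, was the member with the highest log2 fold change, at 16.9, 9.30, 13.9 and 19.0 CPM in rFGF21 libraries 1, 2, 3 and 5, against 9.03, 14.3, 9.05 and 6.52 CPM in PBS libraries 1, 2, 4 and 5. The groups overlapped through rFGF21 library 2 and PBS library 2 (0.60 ± 0.26, edgeR adjusted p = 0.239). Abcd4, which in human cells acts at the lysosome in the export of cobalamin, stood at 15.4 ± 1.55 CPM in rFGF21 and 15.0 ± 2.22 CPM in PBS libraries (0.04 ± 0.13, edgeR adjusted p = 0.905).

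**Figure D2:**
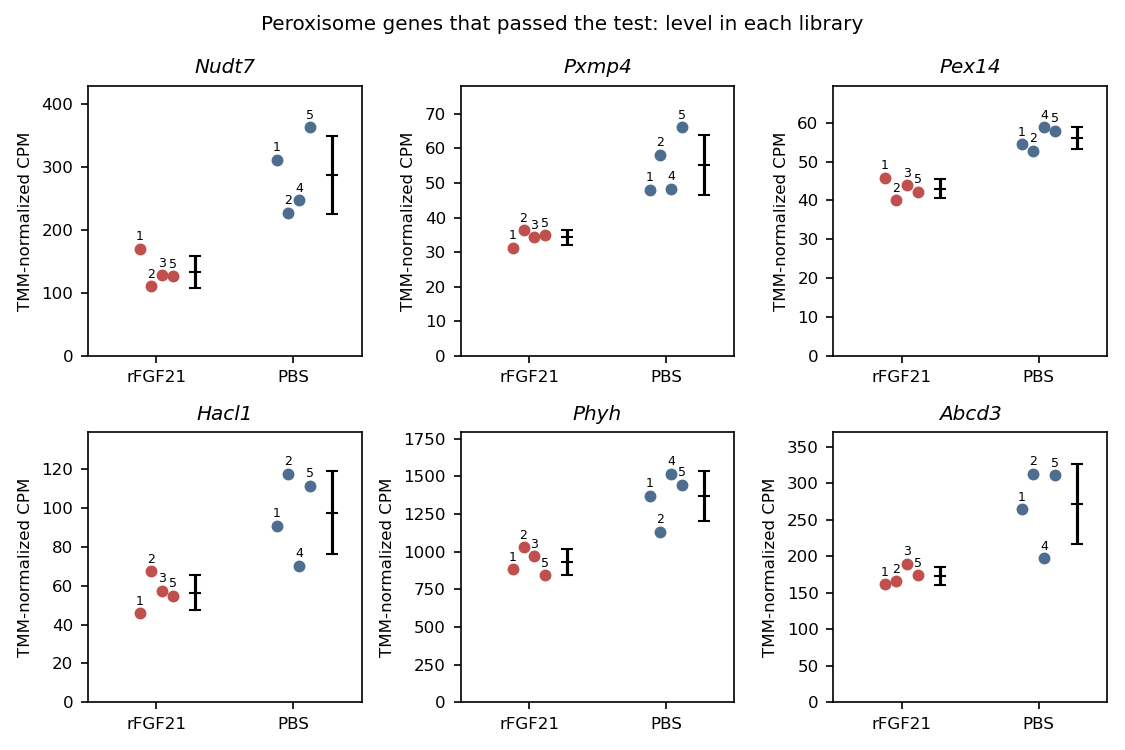
Level in TMM-normalized CPM of the 6 members that passed the test, with rFGF21 libraries in red and PBS libraries in blue, the library number above each point, and the mean and SD of 4 libraries beside them. The groups do not overlap in any of the 6 panels; PBS library 4 is the lowest control for Hacl1 and Abcd3 and the highest for Pex14 and Phyh.

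Of the 13 peroxins, 1 fell and 0 rose (1.67% and 1.15% of all genes tested). Pex14, the membrane anchor of the docking complex that receives loaded import receptors (chr4:148960535-149099876, minus strand), was read at 45.8, 40.03, 43.9 and 42.3 CPM in rFGF21 libraries 1, 2, 3 and 5, against 54.5, 52.8, 58.8 and 57.9 CPM in PBS libraries 1, 2, 4 and 5. Both groups were tight and did not overlap. Pex14 fell by 23.2% (-0.38 ± 0.08, edgeR adjusted p = 0.0343), a smaller decrease than those of the other 5 called members, and with 1 library removed it stayed past the threshold only where that was PBS library 4 (edgeR adjusted p from 0.0453 to 0.101 over the 8 such fits). Pex14 overlaps the antisense gene Gm17029 over 24137 bases, which had 64.8 reads per library on average where Pex14 had 3412. Its docking partner Pex13 stood at 33.2 ± 2.38 CPM in rFGF21 and 38.6 ± 3.03 CPM in PBS libraries and did not pass (-0.22 ± 0.09, edgeR adjusted p = 0.230).

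None of the import receptors, nor of the proteins that recycle them, passed the edgeR test; Pex7 and Pex26 were lower at an unadjusted p under 0.05, and DESeq2 called Pex26 lower. Pex5, the receptor for the C-terminal targeting signal, stood at 93.3 ± 4.64 CPM in rFGF21 and 102 ± 10.7 CPM in PBS libraries (-0.12 ± 0.10, edgeR adjusted p = 0.529). Pex7, the receptor for the N-terminal signal that the thiolases, Phyh and Agps carry, stood at 37.6 ± 2.49 CPM in rFGF21 and 44.9 ± 5.16 CPM in PBS libraries, without overlap between the groups but without passing (-0.26 ± 0.10, edgeR adjusted p = 0.198). Of the ubiquitin ligases of the export step, Pex2 stood at 38.4 ± 4.51 CPM in rFGF21 and 38.6 ± 5.81 CPM in PBS libraries (-0.01 ± 0.13, edgeR adjusted p = 0.981), and Pex10, the lowest peroxin in RPKM, had -0.28 ± 0.17 (edgeR adjusted p = 0.402). Pex6, an ATPase that extracts the receptors, stood at 76.6 ± 6.53 CPM in rFGF21 and 84.8 ± 13.2 CPM in PBS libraries (-0.15 ± 0.12, edgeR adjusted p = 0.563). Its membrane anchor Pex26 was read at 28.7, 22.01, 26.8 and 26.7 CPM in rFGF21 libraries 1, 2, 3 and 5, against 31.7, 31.6, 36.3 and 34.4 CPM in PBS libraries 1, 2, 4 and 5, and did not pass although the groups were apart (-0.36 ± 0.10, edgeR adjusted p = 0.0888).

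Insertion of membrane proteins depends on Pex3, Pex16 and Pex19. Pex3 stood at 19.1 ± 0.983 CPM in rFGF21 and 23.6 ± 1.13 CPM in PBS libraries, with groups apart (-0.31 ± 0.08, edgeR adjusted p = 0.0836). Pex16 had -0.36 ± 0.14 (edgeR adjusted p = 0.191) and Pex19 had -0.23 ± 0.09 (edgeR adjusted p = 0.210); both overlapped between the groups through PBS library 4. Pex11a, a PPAR-alpha target that elongates peroxisomes before they divide, had the lowest log2 fold change of the peroxins. It was read at 31.7, 36.9, 44.2 and 38.1 CPM in rFGF21 libraries 1, 2, 3 and 5, against 50.8, 59.6, 43.9 and 66.3 CPM in PBS libraries 1, 2, 4 and 5. PBS library 4 lay just below rFGF21 library 3, and Pex11a did not pass with all libraries (-0.55 ± 0.14, edgeR adjusted p = 0.0666). Its relative Pex11g had -0.21 ± 0.10 (edgeR adjusted p = 0.301). DESeq2 called Pex3 and Pex11a lower, where it called 4.29% of all genes lower. Without PBS library 4, edgeR called Pex11a and Pex16 lower, where 1.54% of all genes were called lower.

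Of 8 enzymes listed under peroxisomal beta oxidation, 0 passed the test (edgeR), although 6 were lower and 0 higher at an unadjusted p under 0.05 (9.86% and 8.92% of all genes tested). The role was drawn broadly and includes Pecr and Mlycd, which are not steps of the cycle itself. Those 2 were the only ones of the 8 with every rFGF21 library below every PBS library (6.39% of all genes tested). DESeq2 called Acaa1b, Mlycd and Pecr lower, where it called 4.29% of all genes lower. Pecr, a trans-2-enoyl-CoA reductase, had the smallest p of the role. It was read at 90.04, 85.3, 90.8 and 93.1 CPM in rFGF21 libraries 1, 2, 3 and 5, against 125, 106, 113 and 113 CPM in PBS libraries 1, 2, 4 and 5. The groups were apart, and the adjusted p stood just above the threshold (-0.35 ± 0.08, edgeR adjusted p = 0.0531). Pecr was called lower by limma-voom, and by edgeR over genes with a mean of at least 50 reads (290 and 317 genes lower in all). Acaa1b, a thiolase and the most abundant of the role per length, was read at 217, 245, 302 and 302 CPM in rFGF21 libraries 1, 2, 3 and 5, against 438, 568, 259 and 384 CPM in PBS libraries 1, 2, 4 and 5. PBS library 4 lay inside the rFGF21 range, and the other PBS libraries above it (-0.63 ± 0.21, edgeR adjusted p = 0.141). The near-identical Acaa1a had -0.15 ± 0.16 (edgeR adjusted p = 0.671), and the levels of both thiolases are uncertain, since the splitting of shared reads was not stated. Ehhadh, the bifunctional hydratase and dehydrogenase, had -0.50 ± 0.21 (edgeR adjusted p = 0.235), and Mlycd, which decarboxylates malonyl-CoA, had -0.41 ± 0.10 with groups apart (edgeR adjusted p = 0.0628). Ech1, Decr2 and Acox3, which handle unsaturated and branched substrates, had log2 fold changes of -0.35, -0.28 and -0.17. Without PBS library 4, edgeR called Acaa1b, Ech1 and Mlycd lower.

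None of the 6 oxidases that make hydrogen peroxide passed the edgeR test. At an unadjusted p under 0.05, 2 were lower and 0 higher (9.86% and 8.92% of all genes tested). DESeq2 called Pipox and Paox lower, where it called 4.29% of all genes lower. Pipox, the oxidase of pipecolate and sarcosine, was read at 120.4, 120.0, 124 and 119 CPM in rFGF21 libraries 1, 2, 3 and 5, against 163, 144, 239.6 and 165 CPM in PBS libraries 1, 2, 4 and 5. The rFGF21 libraries were nearly equal and all lower, and PBS library 4 was the highest control (-0.56 ± 0.14, edgeR adjusted p = 0.0662). Without PBS library 4, Pipox had -0.38 and was called lower (edgeR adjusted p = 0.0417), where 1.54% of all genes were called lower. Paox, a polyamine oxidase, had -0.34 ± 0.10 with groups apart (edgeR adjusted p = 0.116), but its gene overlaps Echs1, read at 11293 reads per library against 892 for Paox, on the opposite strand. Uox, urate oxidase, the most abundant of the role at 194 ± 27.9 RPKM in rFGF21 and 210.2 ± 22.8 RPKM in PBS libraries, had -0.11 ± 0.13 (edgeR adjusted p = 0.690). Hao1, which oxidises glycolate to glyoxylate, had -0.20 ± 0.10 (edgeR adjusted p = 0.346), and Agxt, the transaminase that removes glyoxylate, stood at 160.2 ± 35.4 CPM in rFGF21 and 193 ± 46.4 CPM in PBS libraries (-0.27 ± 0.19, edgeR adjusted p = 0.476). Ddo, which oxidises D-aspartate, had -0.30 ± 0.18 (edgeR adjusted p = 0.406). Hao2, a 2-hydroxy acid oxidase, was nearly unread and varied widely within both groups, with 42, 0, 18 and 79 reads in rFGF21 libraries 1, 2, 3 and 5, against 0, 43, 26 and 11 reads in PBS libraries 1, 2, 4 and 5, and it did not pass (0.54 ± 1.13, edgeR adjusted p = 0.848).

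Catalase (Cat) removes the peroxide that these oxidases make, and with Phyh it was among the most abundant members, at 475 ± 31.3 RPKM in rFGF21 and 692 ± 179 RPKM in PBS libraries. Cat was read at 1247, 1129, 1272 and 1322 CPM in rFGF21 libraries 1, 2, 3 and 5, against 1555, 1645, 2506 and 1528 CPM in PBS libraries 1, 2, 4 and 5. The groups were apart, with PBS library 4 far above the other controls, and Cat did not pass (-0.54 ± 0.16, edgeR adjusted p = 0.105). Without PBS library 4 the log2 fold change of Cat was -0.34 (edgeR adjusted p = 0.0792). Ephx2, the soluble epoxide hydrolase, was read at 317, 327, 395 and 317 CPM in rFGF21 libraries 1, 2, 3 and 5, against 502, 483, 397 and 545 CPM in PBS libraries 1, 2, 4 and 5, and did not pass (-0.51 ± 0.12, edgeR adjusted p = 0.0561). DESeq2 called both Cat and Ephx2 lower, where it called 4.29% of all genes lower. Ephx2 was also called lower by limma-voom, and by edgeR without PBS library 4. Prdx5, a peroxiredoxin, had -0.22 ± 0.12 (edgeR adjusted p = 0.364).

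The 3 genes of ether lipid synthesis differed in sign. Agps, the enzyme that puts in the ether bond, was read at 23.7, 26.1, 25.7 and 27.4 CPM in rFGF21 libraries 1, 2, 3 and 5, against 18.4, 21.6, 17.9 and 23.7 CPM in PBS libraries 1, 2, 4 and 5. PBS library 5 lay just above the lowest rFGF21 library, and Agps did not pass (0.33 ± 0.11, edgeR adjusted p = 0.129). Far1, which supplies the fatty alcohol, had 0.53 ± 0.22 (edgeR adjusted p = 0.230), and Gnpat, the acyltransferase of the first step and the most abundant of the 3 per length, had -0.18 ± 0.07 (edgeR adjusted p = 0.219). At an unadjusted p under 0.05 (edgeR), 1 of the 3 was lower and 2 higher (9.86% and 8.92% of all genes tested). The lower one was Gnpat, whose groups did not overlap. These are single genes that did not pass, and the difference in sign between them was not tested.

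Set side by side, the 3 classes had similar medians. The median log2 fold change was -0.26 in the 13 peroxins (range -0.55 to -0.01), -0.30 in the 5 membrane proteins (-0.69 to 0.60) and -0.32 in the 26 enzymes (-1.10 to 0.54), against 0.00 over all genes tested. The widest decreases lay among the enzymes and carriers, and the peroxins lay in a narrow band. The classes were compared as a description, with no test between them. In single libraries, the class median of log2 CPM relative to the mean of the PBS libraries lay between -0.40 and -0.25 for the enzymes in rFGF21 libraries, and between -0.19 and 0.10 in PBS libraries, without overlap. For the peroxins it lay between -0.32 and -0.16 in rFGF21 libraries and between -0.21 and 0.07 in PBS libraries, and the overlap came from PBS library 4. For the membrane proteins it lay between -0.60 and -0.18 in rFGF21 libraries, lowest in library 5, and between -0.18 and 0.20 in PBS libraries, where library 4 met rFGF21 library 3. Summed RPKM of the 26 enzymes was 2058 ± 94.6 in rFGF21 and 2828 ± 103 in PBS libraries (SD, n = 4 each, no test, as for the sums below). Phyh (492 and 722 RPKM) and Cat (475 and 692 RPKM) were its largest parts in rFGF21 and PBS libraries. PBS library 4, with Cat at 959 RPKM, had the highest enzyme sum (2931), although its class median was the lowest of the PBS libraries. The sum of the 13 peroxins was 164 ± 7.01 in rFGF21 and 195 ± 22.3 in PBS libraries. That of the 5 membrane proteins was 103 ± 7.99 in rFGF21 and 138 ± 18.7 in PBS libraries.

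**Figure D3:**
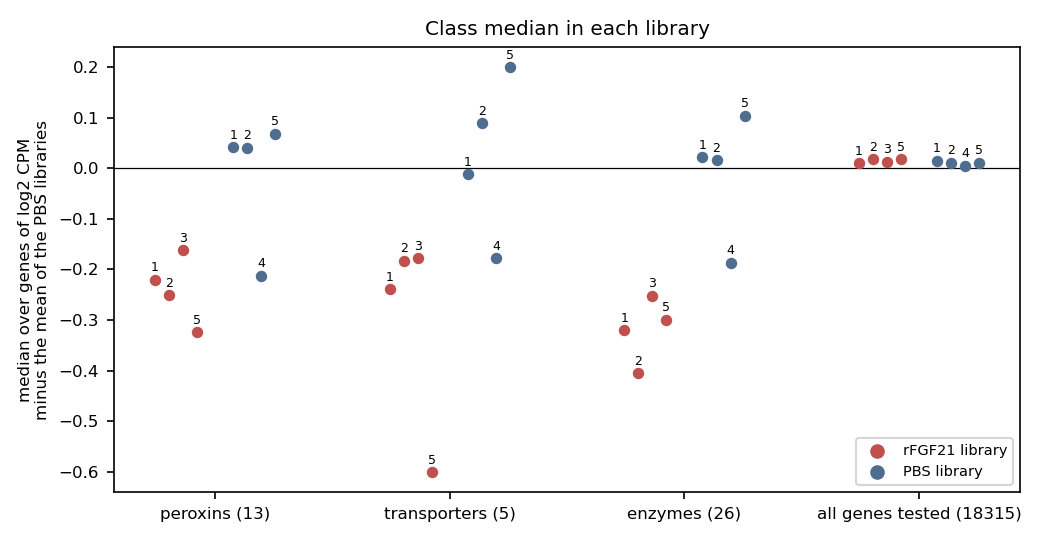
Median over the genes of a class of log2 CPM minus the gene's mean in the PBS libraries, 1 point per library, rFGF21 in red and PBS in blue, with the library number above. The enzymes' medians in rFGF21 libraries lie below all PBS libraries, PBS library 4 lies among the rFGF21 libraries for the peroxins, and all genes tested lie near 0 in every library.

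Other genes of the organelle were read from a separate list of 42, of which 41 were tested. That list was also chosen with earlier results of these data known. Of these, 3 fell and 0 rose (1.67% and 1.15% of all genes tested). The median over the 41 was -0.31, and 37 were below 0 (49.6% of all genes tested). Crat, carnitine acetyltransferase, stood at 29.6 ± 3.98 CPM in rFGF21 and 53.8 ± 14.1 CPM in PBS libraries (-0.86 ± 0.17, edgeR adjusted p = 0.0277). Dhrs4, a reductase, had -0.38 ± 0.08 (edgeR adjusted p = 0.0405), while Mpv17l had -0.70 ± 0.17 and did not pass (edgeR adjusted p = 0.0542). The deposited table's own KEGG annotation marks 80 tested genes as peroxisomal, of which 10 fell and 0 rose. Those 10 include the 6 called members. Among the 37 that are not members, 4 fell, with Acsl1, Crat and Dhrs4 among them.

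Of 14 tested genes of peroxisome division and turnover, 1 fell and 0 rose (1.67% and 1.15% of all genes tested). Log2 fold changes were above 0 in 7 and below 0 in 7. Acbd5, which ties peroxisomes to the endoplasmic reticulum, stood at 143 ± 8.54 CPM in rFGF21 and 204 ± 19.8 CPM in PBS libraries (-0.51 ± 0.10, edgeR adjusted p = 0.0251). Its relative Acbd4 had -0.30 ± 0.10 (edgeR adjusted p = 0.144), the autophagy receptor Sqstm1 0.20 ± 0.09 (0.281) and the ubiquitin ligase Marchf5 -0.16 ± 0.09 (0.374).

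None of the 14 genes of PPAR-alpha and its partners changed by edgeR, and DESeq2 and limma-voom called 0 as well. At an unadjusted p under 0.05 (edgeR), 5 were lower and 0 higher (9.86% and 8.92% of all genes tested). Ppara itself stood at 32.0 ± 1.76 CPM in rFGF21 and 33.3 ± 6.16 CPM in PBS libraries (-0.06 ± 0.13, edgeR adjusted p = 0.865). Lpin1 had -1.25 ± 0.44 (edgeR adjusted p = 0.155), Rxrg -0.60 ± 0.22 (0.172), the coactivator Ppargc1a -0.79 ± 0.29 (0.176) and Pparg -0.33 ± 0.13 (0.192). Of 25 genes listed as PPAR-alpha targets outside the peroxisome, 23 were below 0 (49.6% of all genes tested), with a median of -0.54. The list was drawn up by name with earlier results of these data known, and where its proteins lie in the cell was not checked. Acsl1 on it is also marked as peroxisomal by the KEGG annotation and was counted there too. Among the 25, 2 fell and 0 rose (1.67% and 1.15% of all genes tested). These were Acsl1, a long chain acyl-CoA synthetase, at 236 ± 19.5 CPM in rFGF21 and 475 ± 89.6 CPM in PBS libraries (-1.01 ± 0.14, edgeR adjusted p = 0.00710), and Cpt2, the inner carnitine palmitoyltransferase of mitochondria (-0.60 ± 0.09, 0.00876). Slc25a20, the mitochondrial carrier of acylcarnitines (-0.56 ± 0.14, 0.0585), and Fgf1 (-0.67 ± 0.17, 0.0605) did not pass.

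**Figure D4:**
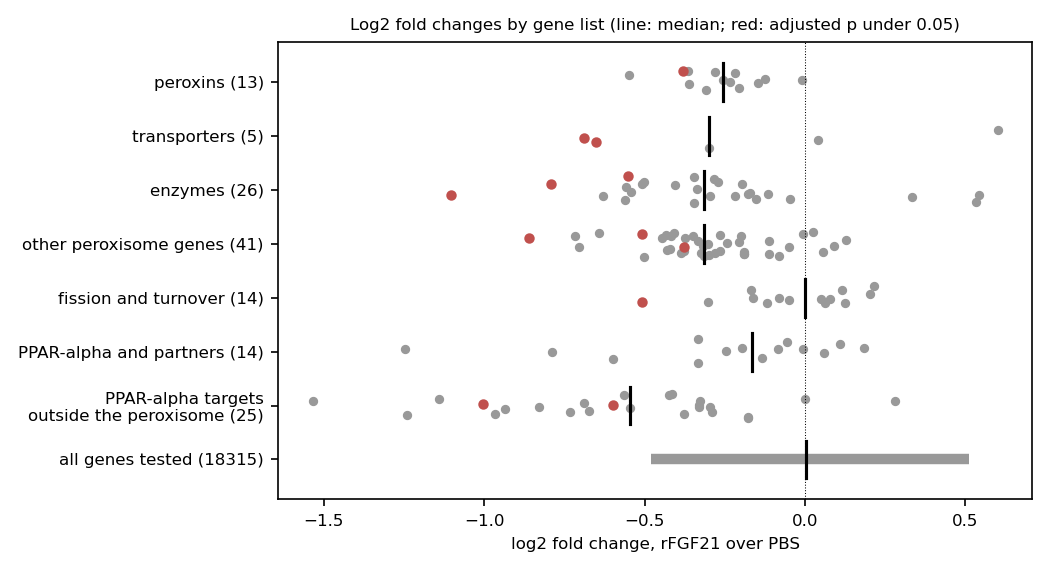
Log2 fold changes, rFGF21 over PBS, of the 3 member classes and of 4 further gene lists, 1 point per tested gene, red for an adjusted p under 0.05 and a black line for the median; the grey bar spans the 10th to 90th percentile of all genes tested (-0.48 to 0.51). Medians lie at -0.26, -0.30 and -0.32 for the member classes and at -0.54 for the genes listed as PPAR-alpha targets outside the peroxisome.

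Promoter windows of 250 bases before to 50 after the annotated start (RefSeq, GRCm38.p6) were matched for 37 of the 44 members, in 43 windows. The direct repeat bound by PPAR-alpha with RXR, AGGTCA repeated after 1 free base, with up to 2 mismatches on either strand, was found in 1 of the 37, Cat, and in 4.40% of all 27025 genes with a window. The GC box GGGCGG was found in 24 of the 37 (38.2% of all genes) and the CCAAT box CCAAT in 14 (41.1% of all genes), on either strand. The median window of the members held 57.0% G and C, against 52.7% over all windows. These windows are short, and a missing match says only that the letters are not in them. Shown are the 250 bases before the start of both members with the steadiest calls, Nudt7 (chr8:114133324-114133573, plus strand, the first of its 2 annotated starts) and Pxmp4 (chr2:154603674-154603923, minus strand), and of Cat (chr2:103485154-103485403, minus strand), 5′ to 3′ along the gene. Capitals mark matches to the 3 motifs on either strand: 4 GC boxes in Nudt7, 3 CCAAT boxes and 1 GC box in Pxmp4, and in Cat the repeat-like stretch that starts at -204, 4 CCAAT boxes and 1 GC box. No matches overlap.
Nudt7: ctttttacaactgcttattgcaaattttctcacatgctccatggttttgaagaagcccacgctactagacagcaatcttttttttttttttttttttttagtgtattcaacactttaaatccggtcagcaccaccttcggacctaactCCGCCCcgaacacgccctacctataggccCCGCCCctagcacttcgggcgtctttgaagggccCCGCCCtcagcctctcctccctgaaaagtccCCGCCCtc
Pxmp4: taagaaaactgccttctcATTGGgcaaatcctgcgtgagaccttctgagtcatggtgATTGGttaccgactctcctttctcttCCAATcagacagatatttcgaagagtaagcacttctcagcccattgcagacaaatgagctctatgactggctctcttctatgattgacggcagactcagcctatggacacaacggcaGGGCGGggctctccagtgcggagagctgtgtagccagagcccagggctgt
Cat: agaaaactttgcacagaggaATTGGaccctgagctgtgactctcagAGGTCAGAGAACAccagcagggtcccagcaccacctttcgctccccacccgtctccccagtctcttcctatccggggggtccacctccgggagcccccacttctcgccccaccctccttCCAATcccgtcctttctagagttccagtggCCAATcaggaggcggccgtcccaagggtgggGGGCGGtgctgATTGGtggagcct

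The calls of the 6 members differed in how far they rested on single libraries. Nudt7 passed in all 8 fits that left out a library and Pxmp4 in 7 of them. Hacl1 passed in 2, and Phyh, Pex14 and Abcd3 in 1 each, while their log2 fold changes stayed between -0.92 and -0.69 for Hacl1, -0.63 and -0.50 for Phyh, -0.41 and -0.34 for Pex14, and -0.77 and -0.57 for Abcd3.

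**Figure D5:**
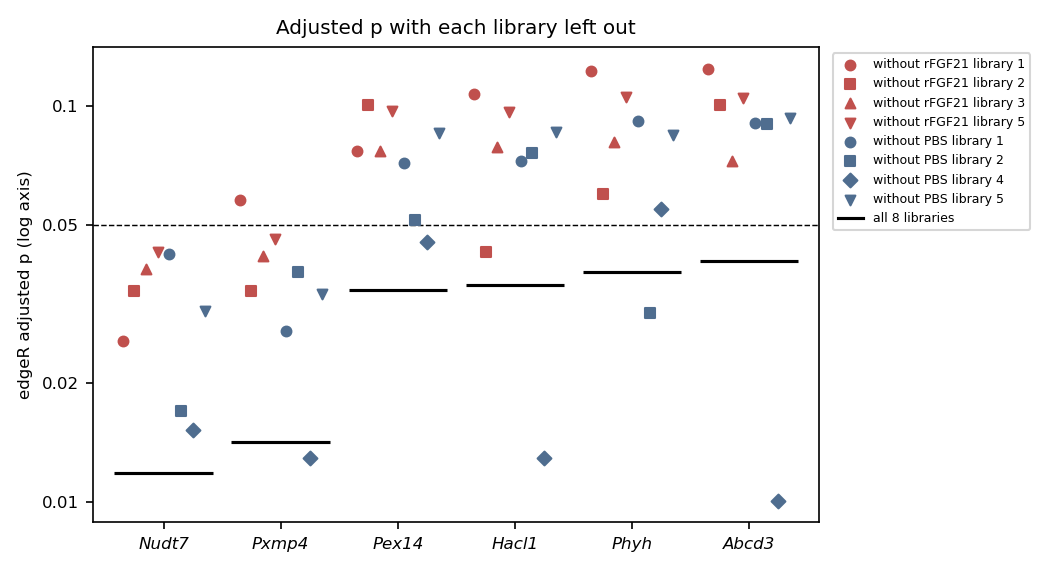
Adjusted p (edgeR's quasi-likelihood test, log axis) of the 6 changed members with all 8 libraries (black line) and with each library left out (red for rFGF21, blue for PBS; the shape gives the library number); the dashed line is the threshold of 0.05. All 8 points of Nudt7 and 7 of Pxmp4 lie below the line, against 2 of Hacl1 and 1 each of Phyh, Pex14 and Abcd3.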

How the data were processed

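Per the labels' protocols, total RNA was taken with Trizol and made into Illumina TruSeq libraries; that text names retina, while every tissue label says liver. The authors deposited raw read counts per gene, per the file headers, for 10 libraries, where the labels list 4 samples a group. Used were the 8 count columns with a matching FPKM column. Not used were 10 other columns, 2 of counts without a matching FPKM column and the 8 of FPKM. Columns could not be tied to single samples, and counts alone were kept as the measure. Bowtie 0.12.2 and mm8 are named, per the submitters' processing notes, but 27322 of 30177 shared gene identifiers (90.5%) have the coordinates of GENCODE M21 (GRCm38), and 37 of the 44 members do, so coordinates are given as the deposited table has them, as GRCm38. The counting tool and its strand setting: not given in the sources used here. Columns carry other numbers than the labelled samples; each was therefore given a group only, and a library is called by its column number.

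Counts were filtered (filterByExpr), scaled by TMM and tested with edgeR 4.0.16 in R 4.3.3 (quasi-likelihood F test, two-sided, no covariates), adjusted by Benjamini-Hochberg over 18315 genes; SE follows from F. RPKM was computed here from TMM-scaled counts and GENCODE M21 exon lengths, in place of the planned FPKM, and a planned search for targeting signals in proteins was not run. DESeq2 1.42.0, limma-voom (limma 3.58.1), other scalings and filters, a pairing term and leaving out each library were tried. On simulated counts (rFGF21 over PBS, 17863 genes), the test recovered 6.67% of genes with a 1.5-fold change, 53.1% at 2-fold and 95.9% at 4-fold, and 7 of 127 calls were false. The members and lists were chosen with earlier results of these data known. Named were members that passed, the smallest p and the highest RPKM of each role, and up to 4 genes of each other list; Ppara and the other members were named after their values were seen. Some genes of the other lists are counted but not reported here by name. Markers of cholangiocytes, macrophages, stellate cells, endothelium, neutrophils, lymphocytes, red cells and retina were read, and 0 of their genes were called.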

Additional observations from a re-analysis of the deposited data

Results flagged for a closer look

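In 88 groups of 4 libraries (44 members in each of 2 groups), 8 had a library far from the others, with a gap to its nearest neighbour that took up most of the group's range (Dixon's test). For independent groups, chance gives about 1 in 20. The groups here share the same 8 libraries, so that rate sets no expected count for them. Of the 8, 6 were PBS library 4. It was far above the other PBS libraries for Cat (2506 CPM) and Nudt19 (37.2 CPM), and far below them for Ech1 (121 CPM), Far1 (4.41 CPM), Acaa1a (203 CPM) and Pex3 (21.9 CPM). Ephx2 was high in rFGF21 library 3 (395 CPM) and Pxmp2 low in rFGF21 library 5 (59.4 CPM).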

How the results depend on the processing

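With RLE or upper-quartile factors the same 6 members were called. Members called numbered 3 with library size only, 16 with DESeq2 and 8 with limma-voom, against 6 as reported. They numbered 7 over genes with a mean of at least 50 reads and 2 with no filter. Genes called numbered 1447 with DESeq2, 487 with limma-voom, 560 with a mean of at least 50 reads and 198 with no filter, against 516 as reported. No member was called higher in any of the 17 alternatives. Leaving out 1 library gave between 131 (without rFGF21 library 1) and 486 (without PBS library 4) genes, and between 1 and 12 members, without those same libraries. The planned limma fits on the authors' FPKM were not run. The column numbers 1, 2 and 5 occur in both groups. Deviations from the group means of same-numbered libraries correlated at 0.0653, -0.0359 and -0.0992. rFGF21 library 1 correlated most with PBS library 1, which did not hold for numbers 2 and 5. So few correlations cannot show whether same-numbered libraries belong together. With the replicate block on those 6 libraries, 12 genes and 0 members passed (30 members at an unadjusted p under 0.05); the same libraries without it, an alternative chosen after seeing the data, gave 281 genes and 8 members.

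The 6 called members kept their sign throughout. Sign changes were seen in Nudt19, Pex2 and Abcd4, which lay near 0, and in Hao2, which had a wide error. Nudt19 had 0.036 with library size only and 0.014 in the unpaired fit of those 6 libraries, and ran from -0.133 to 0.037 with a library left out. Pex2 had 0.066 with library size only and from -0.106 to 0.055 with a library left out. Abcd4 had -0.022 under the replicate block, -0.026 in the unpaired fit, and from -0.0295 to 0.117 with a library left out, and Hao2 ran from -0.24 to 1.22 with a library left out and had 1.64 under the replicate block. The cause was not tested. Intervals and calls cover 4 libraries a group, and changes near 1.5-fold were mostly missed in the simulation.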
